A study of Homo sapiens with 6 samples.

Results

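ZNF354A, ZNF354B and ZNF354C are 3 zinc-finger genes that lie close together on the long arm of chromosome 5, and ZNF488 is an unrelated zinc-finger gene on chromosome 10. All 4 were found by symbol in a table of 58735 genes. ZNF354C and ZNF488 were picked because their levels were known to be low in the resistant line, and the other ZNF354 genes because they are paralogs of ZNF354C. The levels of the 4 genes are therefore given below as a description, with no p-value. RNA was sequenced from 3 cultures of PANC1OR and 3 cultures of PANC1. PANC1 is an established human cell line grown from a pancreatic duct carcinoma, and its cultures were untreated. PANC1OR is 1 subline of PANC1 that was selected by growth over many passages in rising amounts of oxaliplatin, a platinum drug that binds DNA. It is described as growing stably without the drug, and no source used here says if the harvested cultures held any. Because only 1 resistant line was grown, p-values measure the spread between cultures and not between independently selected lines.

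The proteins of the ZNF354 genes belong to the KRAB zinc-finger family, the most numerous group of DNA-binding proteins in mammals. Their zinc fingers read the DNA sequence, and the KRAB domain recruits the co-repressor TRIM28, which brings in a histone methyltransferase and heterochromatin proteins. ZNF354A is known from its rat orthologue in kidney, and the rat orthologue of ZNF354C is known as a repressor at elements bound by the bone factor RUNX2. ZNF488 has no KRAB domain and is related to the PRDM family. In mouse its orthologue acts with OLIG2 in oligodendrocytes, the myelin-forming cells of the brain.

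In the translated coding sequence of GENCODE release 44, a pattern search found 13 classical zinc fingers in ZNF354A (605 codons), 13 in ZNF354B (612 codons), 11 in ZNF354C (554 codons) and 2 in ZNF488 (340 codons). The KRAB pattern was found in the 3 ZNF354 genes and not in ZNF488. The coding bases of ZNF354A and ZNF354B were 90.1% identical over 1812 aligned bases. ZNF354C shared 68.6% with ZNF354A and 68.4% with ZNF354B. Of all stretches of 50 bases in the longest annotated ZNF354A transcript, 12.4% also occur in a transcript of ZNF354B, and 11.2% of those in ZNF354B occur in ZNF354A. Such reads cannot be assigned to 1 of these paralogs. No stretch of that length in ZNF354C occurs in ZNF354A or ZNF354B, and none in ZNF488 occurs in a transcript of any other gene. In ZNF354C 7.97% of the stretches also occur in a processed pseudogene on its opposite strand, which had 0 reads in both lines.

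The promoters of the ZNF354 genes are shown because they lie in 1 cluster and yet belong to genes whose levels differed so much in PANC1OR. They are from RefSeq on GRCh38.p14, run from 250 bases before the start of transcription to 50 bases after it, and are written 5′ to 3′ on the strand of the gene. Capitals mark ACTACACTTCCC, the longest stretch that all 3 promoters hold unchanged on either strand, which is close to an element known to be bound by the factor ZNF143. Those of ZNF354A are at chr5:178730610-178730909 on the minus strand, those of ZNF354B at chr5:178859703-178860002 and of ZNF354C at chr5:179060123-179060422, both on the plus strand.
ZNF354A: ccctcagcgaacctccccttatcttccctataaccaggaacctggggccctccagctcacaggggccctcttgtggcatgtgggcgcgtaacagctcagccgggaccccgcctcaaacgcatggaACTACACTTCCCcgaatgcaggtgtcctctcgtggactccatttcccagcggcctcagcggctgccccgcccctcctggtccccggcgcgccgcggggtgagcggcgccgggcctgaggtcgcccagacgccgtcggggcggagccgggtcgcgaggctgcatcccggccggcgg
ZNF354B: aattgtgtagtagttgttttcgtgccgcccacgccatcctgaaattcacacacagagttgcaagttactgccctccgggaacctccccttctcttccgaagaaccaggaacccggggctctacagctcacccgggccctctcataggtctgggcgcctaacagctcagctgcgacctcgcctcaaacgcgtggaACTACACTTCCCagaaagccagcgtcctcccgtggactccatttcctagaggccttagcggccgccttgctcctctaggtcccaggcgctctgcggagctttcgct
ZNF354C: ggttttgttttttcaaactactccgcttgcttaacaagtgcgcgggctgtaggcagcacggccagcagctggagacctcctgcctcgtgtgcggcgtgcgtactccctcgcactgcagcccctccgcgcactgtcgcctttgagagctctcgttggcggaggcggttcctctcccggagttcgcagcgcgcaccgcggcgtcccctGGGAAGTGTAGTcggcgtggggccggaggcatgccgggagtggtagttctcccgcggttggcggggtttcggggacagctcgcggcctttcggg

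The shared stretch of 12 bases ended 114, 45 and 33 bases before the start of ZNF354A, ZNF354B and ZNF354C. It read on the gene's own strand in ZNF354A and ZNF354B and on the opposite strand in ZNF354C. It was taken from these sequences. It occurs in 0.137% of all 35116 promoters of the table and in 1.31% of 613 promoters of other zinc-finger genes, again on either strand. The ZNF354A and ZNF354B promoters were 81.7% identical over 230 aligned bases, and that of ZNF354C was 64.9% identical to ZNF354A over 268. CG dinucleotides, the sites of DNA methylation, numbered 30, 19 and 33 in ZNF354A, ZNF354B and ZNF354C, beside a median of 14 over all promoters. That is more than in 77.6%, 57.1% and 82.8% of all promoters, and methylation was not measured. No promoter of ZNF488 is shown.

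Reads assigned to genes numbered 12623721 to 26394388 in the PANC1OR libraries and 10199268 to 15875431 in the PANC1 libraries. Of 10 duct epithelial markers 7 reached 1 CPM (counts scaled to a common library size) in every library, and CFTR had 0 reads in both lines. Of 18 markers of other cell types 1, COL1A1, reached that level in every library, and the blood marker CD3E, the acinar marker AMY2A and the islet markers INS and GCG had 0 reads. The summed level of the duct markers was 687 to 1400 CPM in PANC1OR and 1070 to 1960 CPM in PANC1. That of the other markers was 112 to 295 CPM in PANC1OR and 82.4 to 96.8 CPM in PANC1, and nearly all of it was COL1A1. COL1A1 averaged 172 ± 103 CPM in PANC1OR and 87.3 ± 7.5 CPM in PANC1 (SD, n = 3 each; edgeR adjusted p = 0.123). Of 8 duct markers tested, 37.5% were called by edgeR's test, beside 17.8% of all tested genes (7.50% lower). KRT19, CDH1 and SOX9 fell (log2 fold change -3.81, -1.22 and -0.67), SOX9 only without PANC1OR replicate 3 among the fits that leave out 1 library. The part of this shift in the values below was not tested. PANC1OR replicate 3 stood apart from replicates 1 and 2, with low levels of genes of low GC content. The chi-square per degree of freedom, a measure of how far the counts of 2 libraries differ, was 3.59 between PANC1OR replicates 1 and 2. Between replicate 3 and replicates 1 and 2 it was 122 and 97.6. Pairs from different lines gave 75.4 to 133, and PANC1 pairs gave 10.7 to 31.1. The 3 PANC1OR cultures were thus spread unevenly, and the cause was not tested.

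ZNF354C (ENSG00000177932, chromosome 5, 179060373 to 179083977, plus strand) was well expressed in PANC1 and almost absent in PANC1OR. It had 2, 4 and 1 reads in PANC1OR replicates 1 to 3, against 315, 154 and 295 reads in PANC1 replicates 1 to 3. In CPM this was 0.07475, 0.2498 and 0.08257 in PANC1OR, against 19.61, 16.09 and 18.04 in PANC1. Every PANC1OR library lay far below every PANC1 library. The mean was 0.136 ± 0.0989 CPM in PANC1OR and 17.9 ± 1.77 CPM in PANC1 (SD, n = 3 each), a level 143 times lower in PANC1OR (95% counting interval 68.9 to 356, which covers counting error only). The fitted log2 fold change was -7.03 ± 0.41 (SE), and it was -7.72 without PANC1OR replicate 2, the library with 4 of the 7 reads. In bulk RNA, fewer cells that express a gene and less RNA per cell cannot be told apart.

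ZNF488 (ENSG00000265763, chromosome 10, 47365496 to 47384293, minus strand) was likewise almost absent in PANC1OR. It had 8, 2 and 5 reads in PANC1OR replicates 1 to 3, against 197, 199 and 272 reads in PANC1. The levels were 0.299, 0.1249 and 0.4129 CPM in PANC1OR, against 12.26, 20.79 and 16.64 CPM in PANC1, and the lines did not overlap. The mean was 0.279 ± 0.145 CPM in PANC1OR and 16.6 ± 4.26 CPM in PANC1 (SD, n = 3 each), 58.2 times lower in PANC1OR (95% counting interval 35.0 to 105), with a log2 fold change of -5.88 ± 0.42 (SE). ZNF488 differs from the ZNF354 genes in base composition, with 54.6% GC in its longest transcript against 39.2% to 40.7% in the 3 paralogs. In PANC1OR replicate 3 its level was 0.73 higher in log2 than the mean of replicates 1 and 2. That rests on 5 reads against 8 and 2, too few to give a direction.

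ZNF354A (ENSG00000169131, chromosome 5, 178711512 to 178730659, minus strand) was still expressed in PANC1OR. Its levels were 30.95, 30.91 and 10.49 CPM in PANC1OR, from 828, 495 and 127 reads, against 27.77, 25.07 and 24.34 CPM in PANC1, from 446, 240 and 398 reads. PANC1OR replicates 1 and 2 lay above all PANC1 libraries and replicate 3 lay below them, so the lines overlapped. The mean was 24.1 ± 11.8 CPM in PANC1OR and 25.7 ± 1.8 CPM in PANC1 (SD, n = 3 each), a log2 fold change of -0.09 ± 0.38 (SE). Without PANC1OR replicate 3 the sign turned, to 0.25 ± 0.12. An unnamed protein-coding gene on the same strand overlaps ZNF354A and had 2 reads in PANC1OR and 1 in PANC1.

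ZNF354B (ENSG00000178338, chromosome 5, 178859953 to 178888122, plus strand) stood at 17.45, 16.67 and 9.248 CPM in PANC1OR, from 467, 267 and 112 reads, against 21.73, 15.04 and 19.27 CPM in PANC1, from 349, 144 and 315 reads. PANC1OR replicates 1 and 2 lay within the range of PANC1, and replicate 3 was below it. The mean was 14.5 ± 4.53 CPM in PANC1OR and 18.7 ± 3.38 CPM in PANC1 (SD, n = 3 each), a log2 fold change of -0.37 ± 0.29 (SE) and of -0.15 ± 0.17 without PANC1OR replicate 3. Of all tested genes 36.5% had libraries that did not overlap between the lines. ZNF354C and ZNF488 were in that share, for which they had been picked, and ZNF354A and ZNF354B were not.

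**Figure D1:**
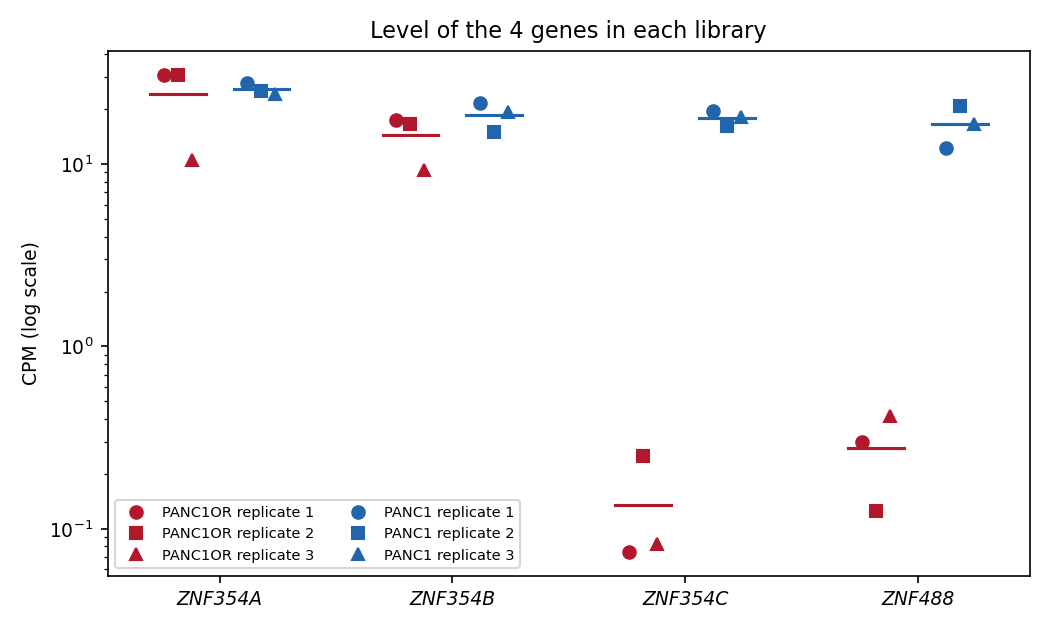
Level of ZNF354A, ZNF354B, ZNF354C and ZNF488 in CPM on a log axis, with 1 point per library (PANC1OR in red, PANC1 in blue) and a line at the mean of 3 libraries. ZNF354C and ZNF488 lie below 1 CPM in all 3 PANC1OR libraries and above 10 CPM in all PANC1 libraries, and PANC1OR replicate 3 is the lowest point of ZNF354A and ZNF354B.

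Per kilobase of annotated exon, which allows levels of different genes to be compared, ZNF354A was the highest of the 4 genes in both lines. In PANC1OR, ZNF354A stood at 8.08 ± 3.96 and ZNF354B at 3.86 ± 1.21 CPM per kb, and ZNF488 (0.0793 ± 0.0412) and ZNF354C (0.0230 ± 0.0168) followed far below (SD, n = 3 each). ZNF354A and ZNF354B overlapped between libraries there, as did ZNF488 and ZNF354C. In PANC1 the order was ZNF354A at 8.62 ± 0.605, ZNF354B at 4.99 ± 0.904, ZNF488 at 4.71 ± 1.21 and ZNF354C at 3.04 ± 0.300 CPM per kb (SD, n = 3 each). Of the neighbours in this order, the libraries overlapped only for ZNF354B and ZNF488.

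The 3 paralogs have nearly the same GC content, and their shares within a library do not depend on its scaling. The shares were not free of the shift in PANC1OR replicate 3. There ZNF354A stood at -1.55 and ZNF354B at -0.87 in log2 from the mean of replicates 1 and 2. ZNF354C made up 0.0843%, 0.285% and 0.234% of the summed CPM per kb of the 3 paralogs in PANC1OR replicates 1 to 3, against 18%, 18% and 18.7% in PANC1. The share of ZNF354A was 68.9%, 69.7% and 58.6% in PANC1OR, against 50.5%, 55.5% and 49.8% in PANC1. Shares are parts of a whole, so the near absence of ZNF354C, which was picked for its low level, by itself raises the other shares. The higher share of ZNF354A is thus not a separate result. The summed level of the paralogs was 15, 14.9 and 6 CPM per kb in PANC1OR, against 18.4, 15.1 and 16.4 in PANC1. The 3 PANC1OR libraries were thus lowest in sum, with replicates 1 and 2 close to PANC1 replicate 2. The ratio of ZNF354A to ZNF354B reads was 1.77, 1.85 and 1.13 in PANC1OR, against 1.28, 1.67 and 1.26 in PANC1, and overlapped between the lines.

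**Figure D2:**
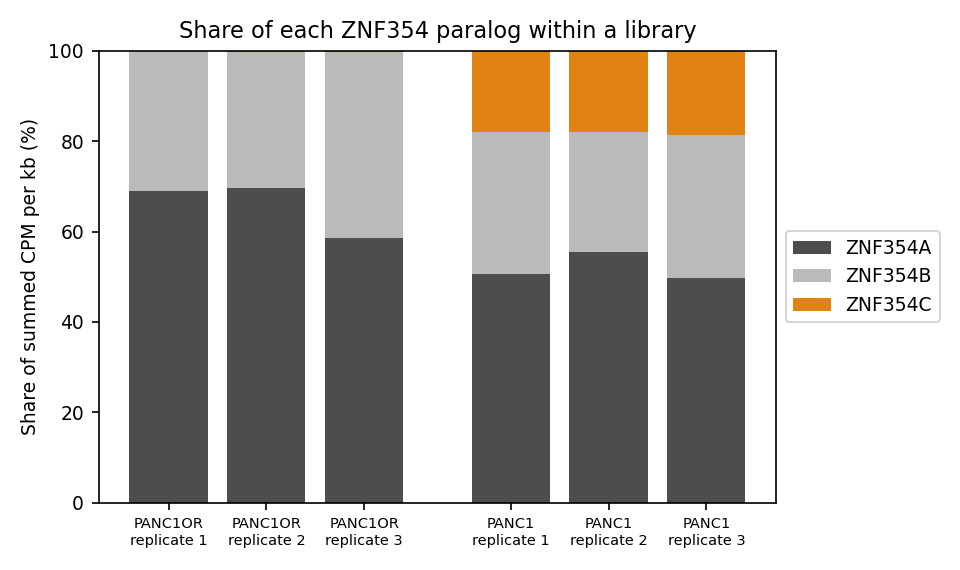
Share of ZNF354A, ZNF354B and ZNF354C in their summed CPM per kb, in percent, with 1 bar per library and PANC1OR on the left. ZNF354C takes 18% to 18.7% of each PANC1 bar and under 1% of each PANC1OR bar.

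The genes around the ZNF354 cluster were lower in PANC1OR as a group, though far less so than ZNF354C. Within 1 Mb on either side of the paralogs, 28 other protein-coding genes were listed and 19 had enough reads to be tested. By edgeR's quasi-likelihood test with Benjamini-Hochberg adjustment over all tested genes, 8 of the 19 fell (42.1%) and 0 rose, and the median log2 fold change of the 19 was -0.83. Of all 18751 tested genes 17.8% were called, 10.3% higher and 7.50% lower, with a median of 0.04. At an unadjusted p under 0.05, 16 fell and 0 rose, beside 2513 fallen and 3086 risen among all tested genes. DESeq2 called 11 fallen and 0 risen, and it called 21.7% of all tested genes. The count of fallen genes was 19 of 20 tested without PANC1OR replicate 3, beside 22.0% of all genes lower and 22.1% higher in that fit. It was 4 of 20 without PANC1OR replicate 1 or 2, and 4 of 19 without PANC1 replicate 3. It was 5 of 19 without PANC1 replicate 2 and 6 of 20 without PANC1 replicate 1. These fits called 12%, 12.5%, 9.31%, 12.2% and 9.86% of all tested genes, in that order. The 19 genes have a median GC content of 55.1% and stood 0.48 higher in log2 in PANC1OR replicate 3 than in replicates 1 and 2.

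Between and beside the paralogs, nearly silent and expressed genes were interspersed. ZFP2, a zinc-finger gene 7.8 kb beyond the end of ZNF354B, fell to 0.209 ± 0.0898 CPM in PANC1OR, against 1.60 ± 0.272 CPM in PANC1 (SD, n = 3 each; log2 fold change -2.94 ± 0.42, edgeR adjusted p = 0.00205). It had 4, 5 and 2 reads in PANC1OR, against 25, 13 and 31 in PANC1, without overlap. ZNF879, a KRAB zinc-finger gene 25.3 kb before ZNF354C, had 170, 106 and 34 reads in PANC1OR, against 152, 88 and 145 in PANC1. Its log2 fold change was -0.79 ± 0.33 (edgeR adjusted p = 0.152), and its libraries did not overlap either. Without PANC1OR replicate 3 it passed, at -0.51 (edgeR adjusted p = 0.0262). ZNF454 and GRM6, a glutamate receptor gene, lie between ZFP2 and ZNF879 and had 0 reads each in PANC1OR, against 2 and 1 in PANC1.

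ADAMTS2, a procollagen-processing protease gene 26.9 kb beyond ZNF354C, had 0 reads in PANC1OR, against 5, 9 and 8 in PANC1. With a floor of 3 reads over the group, its level was at least 9.59-fold lower in PANC1OR, and it had too few reads to be tested. COL23A1, which encodes a transmembrane collagen and lies 121.1 kb before ZNF354A, had 1, 0 and 3 reads in PANC1OR, against 29, 31 and 32 in PANC1 (log2 fold change -4.79 ± 0.71, edgeR adjusted p = 0.00256). Without PANC1OR replicate 3, which held 3 of the 4 reads, it was -6.21. Next to it CLK4, a splicing kinase gene, stood at 13.8 ± 4.41 CPM in PANC1OR and 25.1 ± 2.71 CPM in PANC1 (SD, n = 3 each; log2 fold change -0.87 ± 0.28, edgeR adjusted p = 0.0726), again without overlap, and passed without PANC1OR replicate 3, at -0.64 (edgeR adjusted p = 0.00736). MSANTD5 had 0 reads in both lines. Along this stretch, ZNF354C and 6 other named genes with 11 or fewer reads over the PANC1OR libraries (COL23A1, MSANTD5, ZFP2, ZNF454, GRM6 and ADAMTS2) were interspersed with genes that averaged 5 CPM or more there (CLK4, ZNF354A, ZNF354B and ZNF879).

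Farther out, the called genes fell by smaller amounts. CANX, which encodes the chaperone calnexin, fell to 477 ± 75.7 CPM in PANC1OR, against 996 ± 27.3 CPM in PANC1 (log2 fold change -1.06 ± 0.19, edgeR adjusted p = 0.00559; SD, n = 3 each). RUFY1, an endosomal trafficking gene, stood at -1.03 ± 0.20 (adjusted p = 0.00878) and passed in each fit without 1 library, as did CANX, COL23A1 and ZFP2. MAML1, which encodes a co-activator of Notch signalling, HNRNPAB, an RNA-binding protein gene, MRNIP and RNF130 were called at -1.06, -0.92, -0.78 and -0.83. The highest adjusted p of MAML1, HNRNPAB, MRNIP and RNF130 without 1 library was 0.0797, 0.0626, 0.186 and 0.0682. MAML1, MRNIP and RNF130 passed only without PANC1OR replicate 3 among those fits.

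**Figure D3:**
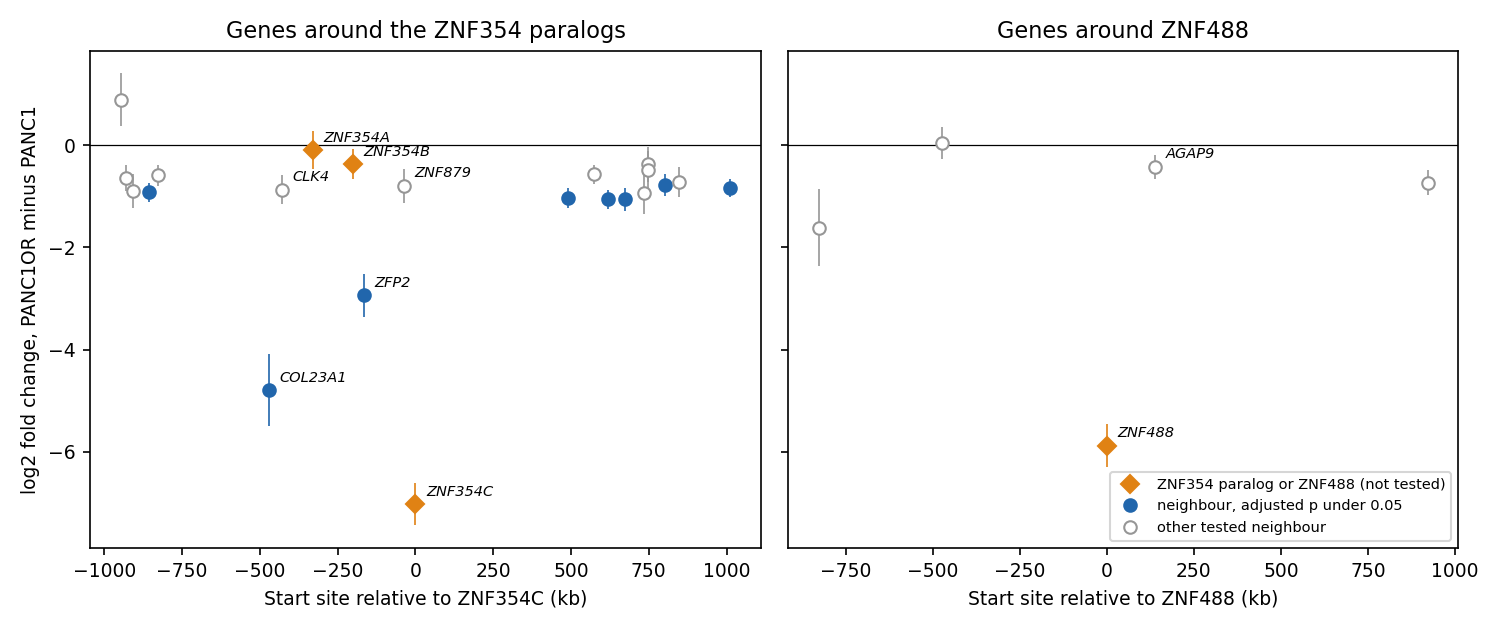
Log2 fold change (PANC1OR minus PANC1) of tested protein-coding genes within 1 Mb of the ZNF354 paralogs (left) and of ZNF488 (right), by distance of the start site in kb, with bars for the standard error. Filled blue points passed the edgeR test, and orange diamonds are the 4 genes described. On the left 16 of 19 neighbours lie between -1.06 and -0.37, with ZFP2, COL23A1 and ZNF354C far below.

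The lower level extended beyond this window. After the neighbours had been seen, protein-coding genes of chromosome 5 were examined in windows of 10 Mb. The stretch from 110 Mb on was not set in advance. Each window in it had a median below 0, beside -0.02 at 100 to 110 Mb. Its values are therefore a description, and they include the neighbours above. From 110 Mb to the end of the chromosome 337 such genes were tested, 76 fell and 19 rose, and 81.3% of them had a log2 fold change below 0, with a median of -0.48. Among the 12718 other protein-coding genes tested, 1010 fell and 1462 rose, 46.3% were below 0 and the median was 0.05. Within that stretch the window of 170 to 180 Mb, which holds the ZNF354 paralogs, had a median of -0.62 over 71 genes, and the window of 160 to 170 Mb one of -0.27 over 16. Low medians were not confined to that stretch. They were -0.48 over 35 genes at 60 to 70 Mb, -0.42 over 46 at 70 to 80 Mb and -0.31 over 20 at 80 to 90 Mb. Other windows outside it were higher, with medians of 0.70 over 18 genes at 40 to 50 Mb and 0.08 over 26 at 90 to 100 Mb. Without PANC1OR replicate 3 the medians were -0.54 from 110 Mb on and -0.04 elsewhere. The values of ZNF354A (-0.09) and ZNF354B (-0.37) lay above the median of this stretch, and no test of that difference was made.

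**Figure D4:**
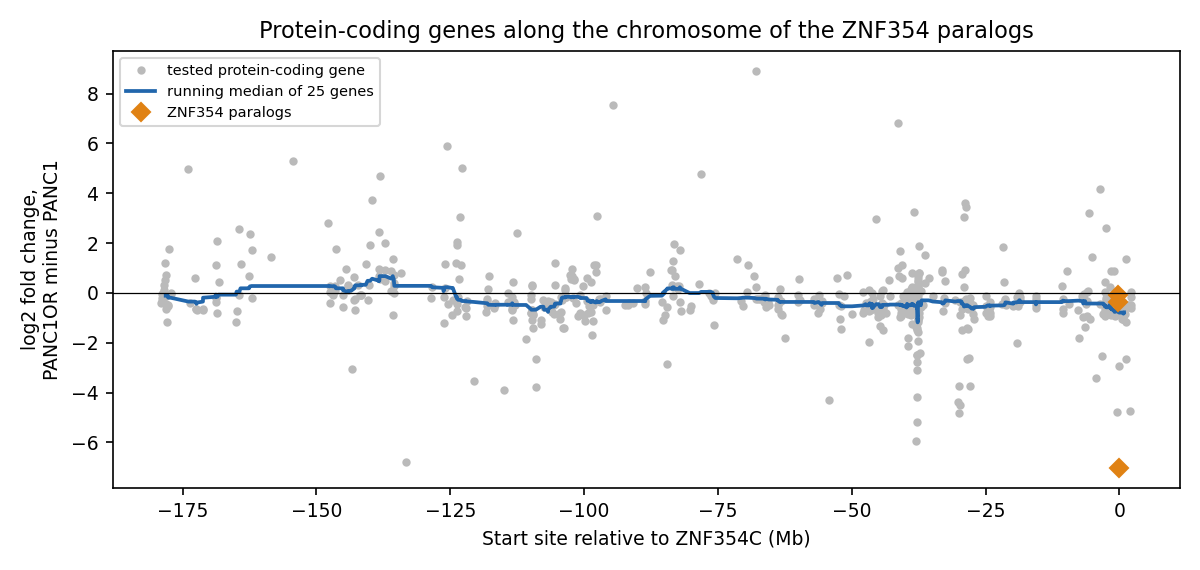
Log2 fold change (PANC1OR minus PANC1) of each tested protein-coding gene of chromosome 5 by the distance of its start site from ZNF354C in Mb, with a running median of 25 genes (blue line) and the 3 ZNF354 paralogs (orange). The running median lies below 0 over the last part before ZNF354C. Farther off the values differ, with a median of 0.70 in the window of 40 to 50 Mb and of -0.48 in that of 60 to 70 Mb. ZNF354C is the lowest point plotted.

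Around ZNF488 few genes were expressed. Of 16 other protein-coding genes within 1 Mb, 4 had enough reads to be tested, and edgeR's quasi-likelihood test called 0 of them. At an unadjusted p under 0.05 1 fell, DESeq2 called 1, and 2 fell without PANC1OR replicate 3, a fit with 22.0% of all genes lower. RBP3, which encodes a retinoid-binding protein of the eye and lies 7.6 kb from ZNF488, had 0 reads in PANC1OR, against 4, 2 and 2 in PANC1. ANXA8, an annexin gene on the other side, had 0 reads in PANC1OR, against 1, 2 and 3 in PANC1, and belongs to a set of near-identical copies. AGAP9, 117.6 kb from ZNF488, stood at 5.48 ± 0.791 CPM in PANC1OR and 7.33 ± 1.22 CPM in PANC1 (SD, n = 3 each; log2 fold change -0.42 ± 0.24, adjusted p = 0.301). The growth factor genes GDF10 and GDF2 and the gene FAM25G had 1, 0 and 0 reads in PANC1OR, against 3, 0 and 0 in PANC1. Within 250 kb, ZNF488 and AGAP9 were thus the only protein-coding genes with more than 10 reads over the PANC1 libraries. In the window of 40 to 50 Mb of chromosome 10, which holds ZNF488, 30 protein-coding genes were tested, 8 fell and 0 rose, 26 lay below 0 and the median was -0.45, beside a median of 0.04 and 7.50% lower among all tested genes. The window's median was -0.33 without PANC1OR replicate 3. That window too was examined after the neighbours had been seen.

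ZNF354C and ZNF488 stood at the low end of the wider zinc-finger family. Of 555 other protein-coding zinc-finger genes 477 were tested, of which 16 rose and 16 fell, 6.71% in all beside 17.8% of all tested genes, with a median log2 fold change of 0.02. ZNF354C and ZNF488 had the lowest and second lowest log2 fold changes of the family, which restates the low levels for which they were picked. ZNF354B and ZNF354A were 89th and 190th from the bottom. The family has a median GC content of 43.2%, against 47.5% for all tested genes, and in PANC1OR replicate 3 its median stood at -0.46 in log2 from replicates 1 and 2. Without that library 118 rose and 83 fell, 41.9% of 480 beside 44.1% of all genes, and with offsets for GC content 30.8% of the family was called (73 risen and 74 fallen) beside 38.9% of all genes (20.6% higher and 18.3% lower). The family's share thus lay near that of all genes once PANC1OR replicate 3 was left out. On chromosome 19, which holds the large KRAB clusters, 5 rose and 2 fell of 224 tested, and 11 rose and 14 fell of 253 on the other chromosomes.

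The lowest of the other called family members, among those that averaged 1 CPM or more, were ZNF608, ZNF716, ZNF704, ZNF827 and ZNF630. ZNF608, also on chromosome 5, fell to 4.28 ± 0.349 CPM in PANC1OR, against 84.5 ± 2.90 CPM in PANC1 (SD, n = 3 each; log2 fold change -4.30 ± 0.20, edgeR adjusted p = 1.67e-05). ZNF704 fell to 1.26 ± 0.246 CPM in PANC1OR, against 20.0 ± 3.53 CPM in PANC1 (-3.98 ± 0.28), and ZNF827, a telomere-associated factor gene, to 0.217 ± 0.139 CPM in PANC1OR, against 2.35 ± 0.140 CPM in PANC1 (-3.46 ± 0.45, and -4.09 without PANC1OR replicate 2). ZNF716 had 9 reads over the PANC1OR libraries and a log2 fold change of -4.29 ± 0.52, and ZNF630 stood at -2.37 ± 0.38. The steepest falls among other family members were smaller than those of ZNF354C and ZNF488, which had been picked for their low levels.

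The highest by the same rule were ZNF503, ZNF462, ZNF620, ZNF714 and ZNF516. ZNF462, a gene of brain and craniofacial development, rose to 318 ± 16.9 CPM in PANC1OR, against 41.6 ± 7.26 CPM in PANC1 (SD, n = 3 each; log2 fold change 2.94 ± 0.20, edgeR adjusted p = 6.88e-05). ZNF503, a developmental repressor gene, rose by 3.40 ± 0.49, with 7.96, 7.93 and 17.3 CPM in PANC1OR, against 0.747, 1.78 and 0.734 CPM in PANC1. ZNF620 rose by 2.77 ± 0.27, ZNF714 by 2.66 ± 0.38 and ZNF516 by 1.94 ± 0.24 on the log2 scale. These 10 genes passed in each fit without 1 library.

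**Figure D5:**
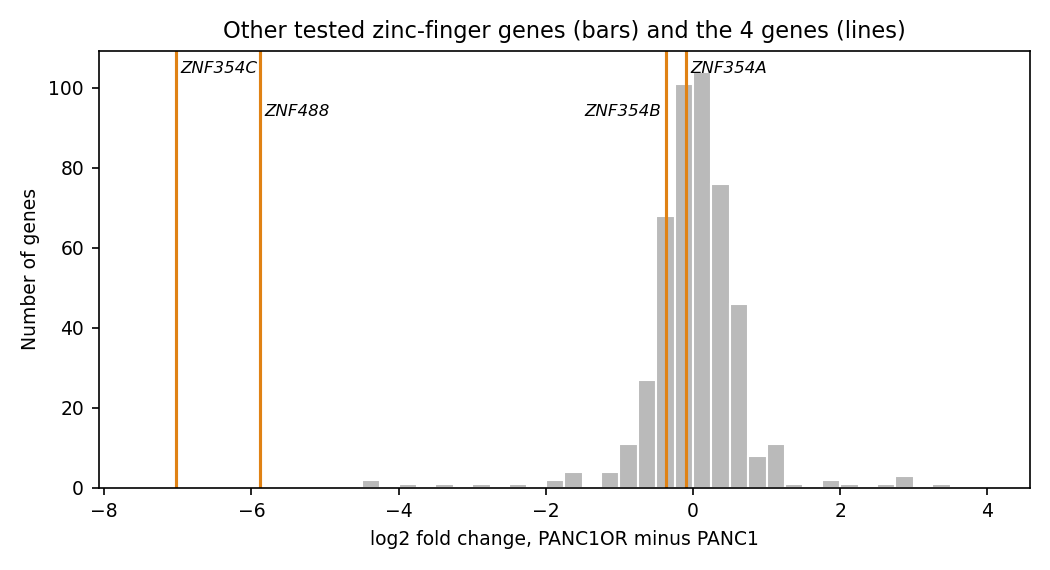
Number of other tested zinc-finger genes by log2 fold change (PANC1OR minus PANC1) in bins of 0.25, with orange lines at ZNF354C, ZNF488, ZNF354B and ZNF354A. The 477 genes centre near 0, and the lowest of them lies at -4.30. The lines of ZNF354C (-7.03) and ZNF488 (-5.88), which were picked for low levels, stand to the left of all bars.

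The co-repressor machinery that KRAB proteins use was present in both lines. TRIM28, the KRAB-binding co-repressor itself, was at 284.7, 275.2 and 704.4 CPM in PANC1OR replicates 1 to 3, against 437.4, 589.5 and 487.4 CPM in PANC1. Replicates 1 and 2 of PANC1OR were below all PANC1 libraries and replicate 3 above them (log2 fold change -0.26 ± 0.37, edgeR adjusted p = 0.702). SETDB1, its histone methyltransferase, was at 45.1 ± 2.39 CPM in PANC1OR and 54.8 ± 1.57 CPM in PANC1 (SD, n = 3 each; edgeR adjusted p = 0.321). Of 31 co-repressor genes 0 rose and 4 fell by edgeR's test, also at an unadjusted p under 0.05, and DESeq2 gave the same counts. That is 12.9% of the list, beside 17.8% of all tested genes. Those that fell were RBBP4 (-1.14 ± 0.20), RBBP7 (-0.63 ± 0.17) and HDAC1 (-0.75 ± 0.19), which encode parts of histone deacetylase complexes, and CBX1 (-0.73 ± 0.17), which encodes a heterochromatin protein. RBBP4 alone passed in each fit without 1 library. RBBP7, HDAC1 and CBX1 passed only without PANC1OR replicate 3, and in that fit 5 co-repressor genes rose and 15 fell, beside 22.1% of all genes higher and 22.0% lower.

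Of the PRDM family, to which ZNF488 is related, 3 of 11 tested genes fell and 0 rose (27.3%, beside 17.8% of all tested genes), also at an unadjusted p under 0.05 and with DESeq2. PRDM16, a regulator of brown fat and stem cells, fell to 1.61 ± 1.04 CPM in PANC1OR, against 46.1 ± 3.67 CPM in PANC1 (SD, n = 3 each; log2 fold change -4.90 ± 0.44, edgeR adjusted p = 0.000206), and its log2 fold change was -5.54 without PANC1OR replicate 3. MECOM, its close relative, had 4 reads in PANC1OR and 109 in PANC1 (-5.03 ± 0.51, and -5.87 without PANC1OR replicate 1), and PRDM1, a repressor known from lymphocytes, had 12 in PANC1OR and 79 in PANC1 (-3.16 ± 0.56). PRDM8, a relative of ZNF488, was at 7.53 ± 2.72 CPM in PANC1OR and 10.3 ± 0.676 CPM in PANC1 (-0.46 ± 0.29, adjusted p = 0.343). PRDM16, MECOM and PRDM1 passed in each fit without 1 library.

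OLIG2, the partner of the mouse orthologue of ZNF488, had 0 reads in both lines, as did OLIG1. Of 16 oligodendrocyte lineage genes 8 were tested, 1 rose and 1 fell (25%, beside 17.8% of all tested genes), and 3 rose and 3 fell without PANC1OR replicate 3. CSPG4, a proteoglycan gene of oligodendrocyte precursors, fell to 4.14 ± 2.64 CPM in PANC1OR, against 58.0 ± 3.05 CPM in PANC1 (SD, n = 3 each; log2 fold change -3.84 ± 0.43, edgeR adjusted p = 0.000601, and -4.47 without PANC1OR replicate 3), and ST18, a zinc-finger factor gene, rose to 1.91 ± 0.910 CPM in PANC1OR, against 0.199 ± 0.0822 CPM in PANC1 (3.15 ± 0.54). Of 17 RUNX and osteoblast genes 7 were tested, 1 rose and 2 fell (42.9%, beside 17.8%), and 3 rose and 3 fell without PANC1OR replicate 3, a fit that called 44.1% of all genes. RUNX2, whose binding elements the rat orthologue of ZNF354C represses, rose to 32.5 ± 1.01 CPM in PANC1OR, against 14.0 ± 2.96 CPM in PANC1 (1.21 ± 0.23, edgeR adjusted p = 0.00744). BMP7, a bone morphogenetic protein gene, had 5 reads in PANC1OR and 85 in PANC1 (-4.40 ± 0.58), and MSX2, a homeobox gene, stood at -3.42 ± 0.34. These 5 called genes passed in each fit without 1 library.

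The genes most like each of the 4 across the 6 libraries were found by the root-mean-square distance between log2 CPM values after each gene's mean was subtracted, among 12522 protein-coding genes that averaged 1 CPM or more. For ZNF354C they were SORBS2 (0.24), SIRPA (0.36), LPAR3 (0.38), SH3RF3 (0.39) and RET (0.41), with distances on the log2 scale in brackets. The prior count of 2 draws levels near 0 reads together, so such genes look alike. The fitted log2 fold changes of SORBS2 and SH3RF3 were -9.04 and -8.66, beside -7.03 for ZNF354C. SORBS2 and SH3RF3 encode scaffold proteins, and SIRPA, LPAR3 and RET encode receptors. For ZNF488 they were NINJ2 and RAMP1 (0.25 each), NR5A2 (0.30), GATA5 (0.31) and SDC2 (0.32). NR5A2 is a nuclear receptor gene of the pancreas, and GATA5 encodes a further zinc-finger factor of endodermal tissues. None of these 10 lies on chromosome 5, and RET lies on chromosome 10. For ZNF354A and ZNF354B the distances were smaller, 0.05 to 0.07 and 0.03 to 0.05, with EIF3E, a translation factor gene, and APC, a tumour suppressor gene of chromosome 5, the nearest. These 6 libraries share 2 lines, so such distances are descriptions.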

How the data were processed

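Read counts per gene from 6 RNA-seq libraries, 3 cultures of PANC1OR and 3 of PANC1, were analysed. Per the series design text and the submitters' processing notes, cutadapt from Trim Galore 0.4.2 removed adaptors, STAR 2.5 aligned the reads to GRCh38, and featureCounts (Subread 1.6.2) gave the counts per gene. Their whole-number values show that the deposited counts are not normalized. No source used here gives the annotation release, the strand setting or the handling of multiply aligned reads, so counts of overlapping genes and near-identical copies are uncertain. A further 5 columns of the deposited table are empty and were not used.

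Genes were kept with filterByExpr (18751), scaled with TMM factors and compared with the quasi-likelihood F test of edgeR 4.0.16 (R 4.3.3) without covariates, with Benjamini-Hochberg adjustment over all tested genes and a threshold of 0.05. The authors' likelihood ratio test was an alternative. Log2 fold changes are PANC1OR minus PANC1. Log2 CPM values used a prior count of 2. The fit was tested on simulated counts with the same spread for every gene and no library set apart. That test does not cover a library like PANC1OR replicate 3. Positions, exon length and GC content are from GENCODE release 44 on GRCh38, which held 58207 of the 58735 identifiers, and promoters from RefSeq, which held 3 of the 4 genes. Genes were named by a rule: the 4 genes, the 5 nearest in pattern to each, up to 4 called genes per list by p-value, the 5 highest and 5 lowest called zinc-finger genes without overlap that averaged 1 CPM or more, and tested genes within 250 kb. Other neighbours, and list genes that did not pass, were named after their values were seen. The 4 genes and all lists were chosen with earlier results of these data known. The alternatives were DESeq2 1.42.0, no filter, the likelihood ratio test, a replicate block, offsets for the trend of each library with GC content, a narrower gene window, the family outside chromosome 19 and leaving out each library.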

Additional observations from a re-analysis of the deposited data

How the results depend on the processing

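The log2 fold changes of ZNF354A, ZNF354B and ZNF488 moved by less than their standard errors (0.38, 0.29 and 0.42) under all 11 alternatives. That of ZNF354A still changed sign without PANC1OR replicate 3. In the same order the log2 fold changes ranged from -0.32 to 0.25, from -0.54 to -0.15 and from -6.11 to -5.56. That of ZNF354C ranged from -7.72 to -6.61 without 1 library. Counts of calls depended on the processing. With GC offsets 7288 genes were called in all, 38.9% of those tested. They included 147 of 477 in the zinc-finger family, 11 of 31 co-repressor genes and 5 of 11 in the PRDM family. Also among them were 17 of 19 neighbours of the ZNF354 genes and 1 of 4 neighbours of ZNF488. So were 4 of 8 oligodendrocyte genes and 6 of 7 RUNX and osteoblast genes. Of the zinc-finger family DESeq2 called 55 (11.5%) and the likelihood ratio test 49 (10.3%), beside 21.7% and 22.2% of all tested genes. Each called 1 of 4 tested neighbours of ZNF488. Within 500 kb, a window that holds 6 tested genes, 3 neighbours of the ZNF354 genes were called (50%, beside 17.8% of all tested genes). Without 1 library the counts ranged from 1821 to 8663 in all, 9.31% to 44.1% of tested genes. In the family they ranged from 18 to 201 (3.76% to 41.9%) and for co-repressor genes from 1 to 20 (3.23% to 64.5%). For neighbours they ranged from 4 to 19 around the ZNF354 genes and from 0 to 2 around ZNF488. For oligodendrocyte genes they ranged from 2 to 6, and for RUNX and osteoblast genes from 3 to 6. In each case the highest count was without PANC1OR replicate 3, and the cause was not tested. The labels do not say if same-numbered libraries were handled together. Their deviations correlated at 0.46, -0.45 and -0.22, and only number 1 matched its own best. With 3 libraries per line these values cannot decide it. With a replicate block 2324 genes were called in all (12.4% of those tested), 22 of the family (4.61%) and 1 co-repressor gene (3.23%). The 7 reads of ZNF354C and 15 of ZNF488 in PANC1OR limit how exactly their folds are known.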
